A study of Mus musculus with 6 samples.

Results

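The genes described here are mouse counterparts of genes at human Alzheimer disease risk loci that microglia express, namely Bin1, Cd2ap, Abi3, Rin3, Ptk2b, Ms4a6b, Ms4a6c and Ms4a6d. They were chosen by symbol and are 8 of the 55493 genes in the count table, and all 8 passed the filter on low counts, among 18210 genes tested. The libraries were made from sorted microglia (CD45low CD11b+), the macrophages that reside in brain tissue. The treated mice had received an Fc-mutant antibody against human LILRB4 (anti-ILT3, clone ZM3.1), and the others an Fc-mutant control antibody (27D6, named Ctrl IgG2a in the labels), both intraperitoneally at 60 mg/kg every week for 8 weeks. All were male, 4 months old at the start, and carried the ILT Telo Tg human transgene on the 5XFAD background, which the controls therefore share. In 5XFAD mice, human transgenes with familial Alzheimer mutations, APP among them, are driven by a neuronal Thy1 promoter. There were 3 libraries per group, and no label ties them to different animals, so each p-value rests on library-to-library spread that may be technical.

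Total counts were between 41948140 and 56345514 in anti-LILRB4 libraries and between 39805118 and 44987032 in controls. Anti-LILRB4 library 2 was the deepest. The 10 genes fixed as defining microglia, P2ry12 the most abundant among them, summed to between 49451 and 49906 CPM (TMM-scaled read counts relative to library size) in anti-LILRB4 libraries and to between 47348 and 49357 CPM in controls, and none was at 0 in any library. In bulk RNA, fewer cells of a type and less RNA per cell cannot be told apart.

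Several loci at which human variants are linked to Alzheimer disease risk lie at genes of membrane traffic, actin remodelling and surface signalling. BIN1, a protein with a membrane-bending BAR domain, and the adaptor CD2AP act in endocytosis and actin assembly, and human RIN3 binds both and activates small GTPases of the RAB5 group on early endosomes. ABI3 is a subunit of WAVE complexes, which drive actin branching through Arp2/3, and PTK2B, also called PYK2, is a calcium-responsive tyrosine kinase related to focal adhesion kinase. The MS4A6 proteins span the membrane and belong to the family of the B cell antigen CD20. Human MS4A6A, a gene of the risk locus, has several mouse relatives.

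The Ms4a6 genes lie in one cluster on GRCm38 chromosome 19 and have alike coding sequences, which matters for how their reads were told apart. The stretch of 90 bases in which their coding sequences, read from GENCODE M21 transcripts, were most alike and the stretch in which they were least alike are given first, 5′ to 3′ on the coding strand, with capitals at positions where the 3 genes do not all have the same base. The most alike stretch covers coding bases 100 to 189 of each gene and has 84 positions in common.
Ms4a6b: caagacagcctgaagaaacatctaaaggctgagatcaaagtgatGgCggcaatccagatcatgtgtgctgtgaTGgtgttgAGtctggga
Ms4a6c: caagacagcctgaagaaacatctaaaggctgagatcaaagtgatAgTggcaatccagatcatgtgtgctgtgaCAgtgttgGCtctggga
Ms4a6d: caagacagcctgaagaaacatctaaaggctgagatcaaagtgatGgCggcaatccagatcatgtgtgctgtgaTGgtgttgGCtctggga
The least alike stretch covers coding bases 301 to 390 and has 56 positions in common.
Ms4a6b: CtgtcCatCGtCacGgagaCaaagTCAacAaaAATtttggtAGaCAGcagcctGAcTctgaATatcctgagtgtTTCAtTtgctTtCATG
Ms4a6c: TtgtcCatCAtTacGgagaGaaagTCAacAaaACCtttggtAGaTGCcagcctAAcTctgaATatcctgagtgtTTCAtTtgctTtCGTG
Ms4a6d: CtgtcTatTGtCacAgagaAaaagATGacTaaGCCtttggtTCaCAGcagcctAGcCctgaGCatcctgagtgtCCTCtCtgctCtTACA

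Over the whole coding sequence, Ms4a6b was identical to Ms4a6c at 85.0% of 645 aligned bases and to Ms4a6d at 79.6% of 732, and Ms4a6c to Ms4a6d at 76.2% of 651. The longest run shared by a pair was 81 bases, between Ms4a6b and Ms4a6d. Reads of these libraries were 150 bases, and of all windows of that length in the protein-coding transcripts of the Ms4a6 genes, 0 occurred in another of them. At 75 bases, 1.11% of the windows of Ms4a6b, 1.25% of those of Ms4a6c and 0.479% of those of Ms4a6d occurred in another. Full-length reads from these transcripts thus carry at least 1 difference between the paralogs, though how the authors treated reads with several matches is not given in the sources used here.

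Other shared sequence came from overlapping genes, and the library kit did not mark strand. Of 150-base windows, 57.7% of those of Abi3 were also in Zfp652 or Phospho1, which lie on the opposite strand, and 49.7% of those of Ms4a6c were also in the noncoding BE692007. Bin1 shared 3.73% with A830052D11Rik, and Cd2ap, Rin3 and Ptk2b shared none at that length. Zfp652 was at 102, 107 and 85.7 CPM in anti-LILRB4 libraries and at 77.7, 93.8 and 85.6 CPM in controls, and BE692007 averaged 4.83 ± 1.48 CPM in anti-LILRB4 libraries and 5.20 ± 0.391 CPM in controls (SD, n = 3 each). The values of Abi3 and Ms4a6c therefore carry this uncertainty.

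The promoters of Ms4a6b and Ms4a6c, from 250 bases before to 50 after the RefSeq start on GRCm38.p6, are shown because the genes resemble each other around that start too. GENCODE M21 starts Ms4a6b further upstream, at 11516512, so its window lies inside the gene as annotated there. Capitals mark a match, on the opposite strand, to GGAAGTG, a sequence bound by ETS factors, the class of the myeloid regulator PU.1.
Ms4a6b, chr19:11518309-11518608, plus strand: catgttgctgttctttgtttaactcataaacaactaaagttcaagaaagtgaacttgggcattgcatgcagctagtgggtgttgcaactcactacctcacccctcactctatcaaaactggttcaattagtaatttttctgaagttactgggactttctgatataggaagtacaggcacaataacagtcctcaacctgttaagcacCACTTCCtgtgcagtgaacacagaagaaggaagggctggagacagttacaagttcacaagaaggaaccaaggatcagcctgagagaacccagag
Ms4a6c, chr19:11469118-11469417, plus strand: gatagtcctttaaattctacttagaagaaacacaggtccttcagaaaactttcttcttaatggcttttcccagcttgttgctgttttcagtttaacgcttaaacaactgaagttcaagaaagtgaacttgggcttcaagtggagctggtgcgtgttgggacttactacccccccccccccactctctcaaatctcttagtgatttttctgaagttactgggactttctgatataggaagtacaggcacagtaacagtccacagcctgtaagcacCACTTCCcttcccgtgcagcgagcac
The windows were identical at 80.3% of 223 aligned bases, with a longest shared run of 48 bases. Each held 1 match, and 11.0% of 32851 promoter windows of that length in the RefSeq table held at least 1 on either strand. Other motifs, likewise searched on both strands, were in neither window, nor in those of Cd2ap and Rin3, the remaining members with a window in the table. They were GAGGAAGT of PU.1 (in 3.20% of all windows) and the partly overlapping AGAGGAA of ETS factors (10.4%), TGACTCA of AP-1 (5.20%) and the palindrome CACGTG, an E-box (7.15%). A match is a description of letters and not a measured binding site.

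Per length, Ms4a6d had the highest mean level of the 8, with either measure of length. Over the 6 libraries it averaged 98.6 CPM per kilobase of exon, followed by Bin1 at 55.7, Abi3 at 45.3, Ms4a6b at 40.7 and Ms4a6c at 12.6, with Ptk2b at 4.88, Rin3 at 4.03 and Cd2ap at 3.78. Of the genes tested, 97.1% lay below Ms4a6d, 94.9% below Bin1 and 59.0% below Cd2ap. On this scale the ranges over the libraries overlapped between Bin1 and Abi3, Abi3 and Ms4a6b, Ptk2b and Rin3, and Rin3 and Cd2ap. The order depended on the length used. With the length of 1 principal transcript in place of all exons, Ms4a6b (68.1) came before Abi3 (47.0), and Cd2ap (11.2) before Ptk2b (8.96) and Rin3 (7.07). On that scale Ms4a6d (120.6) and Bin1 (95.3) overlapped, as did all other neighbours in the order except Abi3 and Ms4a6c.

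Ptk2b and Rin3, the kinase and the RAB5 activator, were the members with the largest differences, both at higher levels in anti-LILRB4 libraries. The Ms4a6 genes, Cd2ap and Abi3 had log2 fold changes of 0.15 or less, with 95% intervals that included 0 and reached as far as 0.51, in Ms4a6c. None of the 8 passed the test. In edgeR's quasi-likelihood test with Benjamini-Hochberg adjustment over 18210 genes, 0 members were called at 0.05, and 0% of all genes were. At an unadjusted p under 0.05 there were 2 members higher and 0 lower, where 4.12% of all genes were higher and 3.91% lower. DESeq2 called 0 members as well, where it called 1.1% of all genes. All 8 members had a log2 fold change above 0, as did 49.1% of all genes, and the median was 0.10 in the members and -0.0068 over all genes. Several of the 8 lay so close to 0 that leaving out a single library turned their sign, as given for each.

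**Figure D1:**
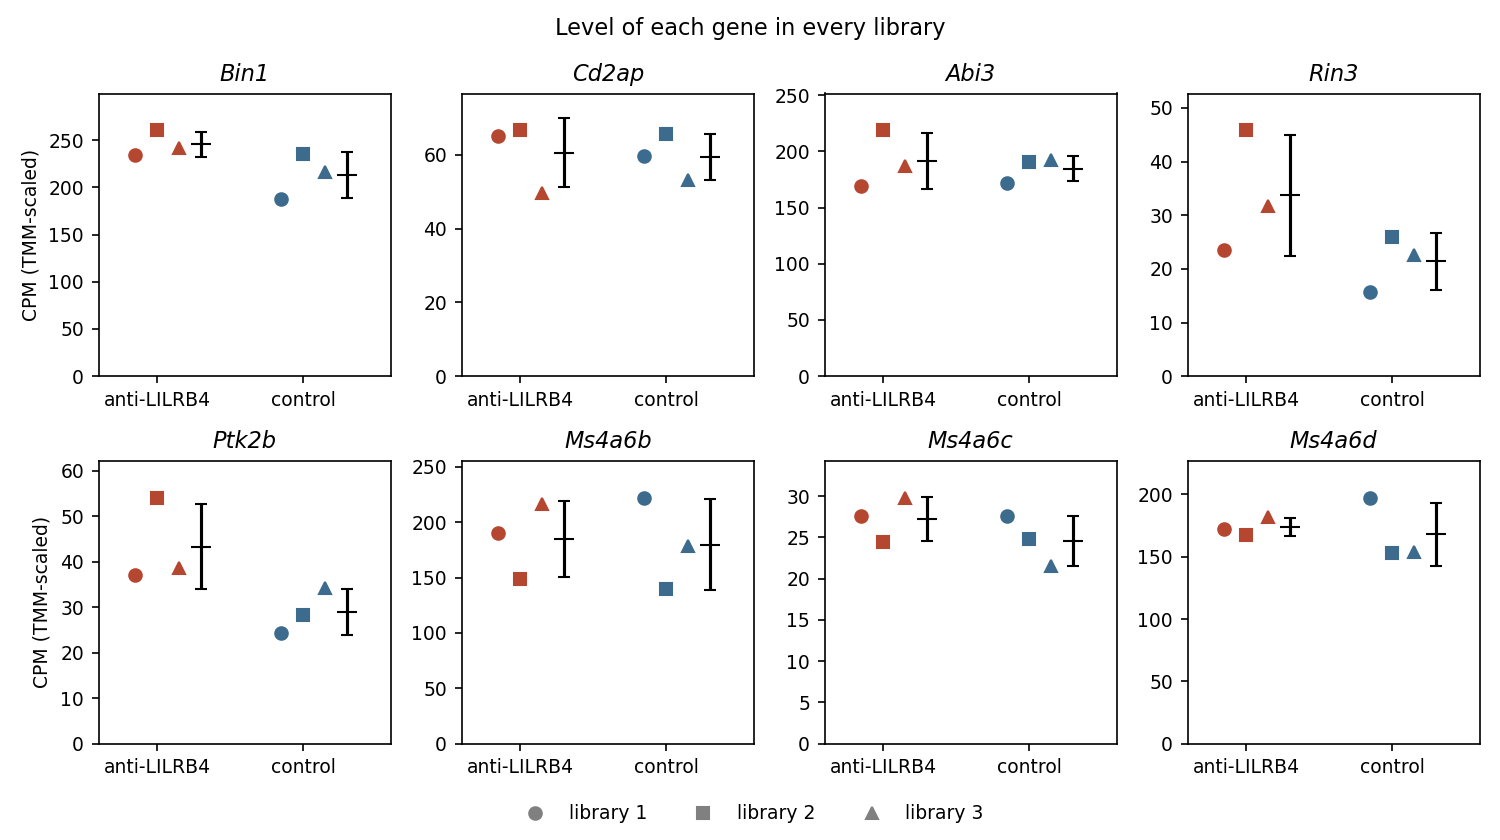
TMM-scaled CPM (vertical axis, from 0) of each of the 8 genes in every library, with the 3 anti-LILRB4 libraries left of the 3 controls, symbols for the library number and bars for the mean and SD of the group (n = 3). Only for Ptk2b do all anti-LILRB4 libraries, the lowest at 37.1 CPM, lie above all controls, the highest at 34.3 CPM.

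Bin1 (ENSMUSG00000024381, GRCm38 chromosome 18, 32377230 to 32435737, plus strand) was at 234, 260.3 and 242 CPM in anti-LILRB4 libraries 1, 2 and 3 and at 187, 236 and 216 CPM in controls 1, 2 and 3. The groups overlapped by a small margin, since anti-LILRB4 library 1 lay just under control 2, and control 1 was the lowest. Its log2 fold change was 0.20 (standard error 0.11), with a 95% interval from -0.048 to 0.46 and an edgeR adjusted p of 0.682. Without control library 1 it was 0.12. Bin1 is also a gene of oligodendrocytes, the myelin-forming cells. Their 8 markers summed to between 159 and 171 CPM in anti-LILRB4 libraries and to between 125 and 144 CPM in controls, with Opalin at 0 in every library. Of that sum Cnp was the largest part, at 103 CPM in anti-LILRB4 libraries and 77.5 CPM in controls on average. The part of these transcripts in the Bin1 difference was not tested.

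Cd2ap (ENSMUSG00000061665, chromosome 17, 42792951 to 42876665, minus strand) was at 65.2, 66.6 and 49.8 CPM in anti-LILRB4 libraries and at 59.6, 65.7 and 53.2 CPM in controls. The lowest and the highest values both belonged to the anti-LILRB4 group. The log2 fold change was 0.025 (standard error 0.15, 95% interval -0.31 to 0.36, edgeR adjusted p 0.98). It turned to -0.031 without anti-LILRB4 library 1, -0.041 without anti-LILRB4 library 2, -0.049 without control library 3 and -0.0059 with upper quartile scaling.

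Rin3 (ENSMUSG00000044456, chromosome 12, 102283048 to 102390855, plus strand) was at 23.6, 45.8 and 31.7 CPM in anti-LILRB4 libraries and at 15.6, 25.9 and 22.6 CPM in controls. Anti-LILRB4 library 2 was by far the highest and control 1 the lowest, and anti-LILRB4 library 1 lay under control 2, so that the groups overlapped. These values averaged 33.7 ± 11.3 CPM in anti-LILRB4 libraries and 21.4 ± 5.24 CPM in controls (SD, n = 3 each). The log2 fold change was 0.66 (standard error 0.26), with a 95% interval for this gene alone from 0.074 to 1.24, an unadjusted p of 0.0310 and an adjusted p of 0.573 in edgeR. DESeq2 gave an adjusted p of 0.246. With no filter on low counts, edgeR gave 0.67 and an adjusted p of 0.0350, the 1 setting of 16 that called any member. Without anti-LILRB4 library 2 the fold change was 0.38, with an adjusted p of 0.871 in edgeR.

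Ptk2b (ENSMUSG00000059456, chromosome 14, 66153257 to 66281052, minus strand) was at 37.1, 54.0 and 38.7 CPM in anti-LILRB4 libraries and at 24.3, 28.4 and 34.3 CPM in controls. It was the 1 member whose groups did not overlap, which 14.7% of all genes showed in either direction and 6.94% in the same one. No member had all anti-LILRB4 libraries below all controls, which 7.79% of all genes showed. For Ptk2b too, anti-LILRB4 library 2 was the highest and control 1 the lowest. The means were 43.3 ± 9.35 CPM in anti-LILRB4 libraries and 29.0 ± 5.02 CPM in controls (SD, n = 3 each). The log2 fold change was 0.58 (standard error 0.19), with a 95% interval for this gene alone from 0.15 to 1.00, an unadjusted p of 0.0126 and an adjusted p of 0.506 in edgeR. DESeq2 gave 0.134, and the authors' deposited table lists a log2 fold change of 0.58 with an adjusted p of 0.149. Leaving out each library in turn gave fold changes from 0.39, without anti-LILRB4 library 2, to 0.72, without control library 3. At an unadjusted p, 2.44% of all genes had a smaller value than Ptk2b and 5.39% a smaller one than Rin3.

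Lymphocytes and neurons express Ptk2b as well. The 8 B cell markers summed to between 592 and 711 CPM in anti-LILRB4 libraries and to between 454 and 542 CPM in controls, mostly from Ighm, at 515 CPM in anti-LILRB4 libraries and 404 CPM in controls on average. None of these markers was at 0 in every library. The 9 T and NK cell markers summed to at most 3.23 CPM in anti-LILRB4 libraries and 1.42 CPM in controls. The 10 neuron markers summed to between 3.04 and 10.1 CPM in anti-LILRB4 libraries and to between 5.47 and 11.6 CPM in controls. What these cells contributed to the Ptk2b values was not tested.

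Abi3 (ENSMUSG00000018381, chromosome 11, 95830074 to 95842476, minus strand) was at 169, 219 and 187 CPM in anti-LILRB4 libraries and at 172, 191 and 192 CPM in controls. The controls lay within the range of the anti-LILRB4 libraries, whose library 2 was again the highest. The log2 fold change was 0.053 (standard error 0.12, 95% interval -0.21 to 0.32, edgeR adjusted p 0.944) and turned to -0.044 without anti-LILRB4 library 2.

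**Figure D2:**
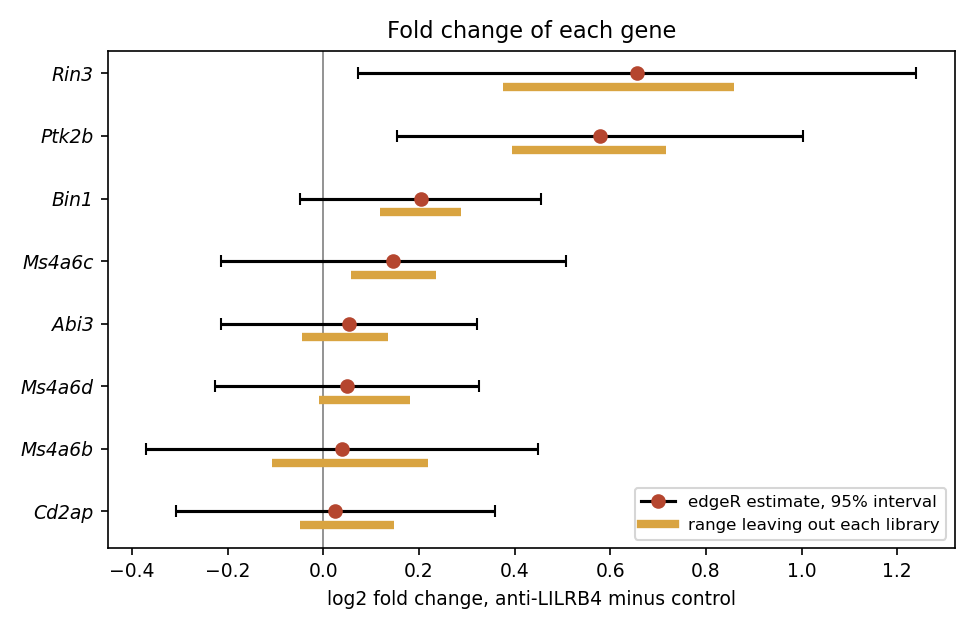
Log2 fold change, anti-LILRB4 minus control (horizontal axis), of each gene, with points for the edgeR estimate, black bars for its 95% interval and ochre bars for the range when each library is left out in turn. The intervals of Rin3, from 0.074, and Ptk2b, from 0.15, are unadjusted for the number of genes tested, and those of the other 6 genes include 0.

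Among the paralogs, Ms4a6b (ENSMUSG00000024677, chromosome 19, 11516512 to 11531256, plus strand) was at 190.3, 149 and 216 CPM in anti-LILRB4 libraries and at 222, 139 and 178 CPM in controls. In both groups library 2 was the lowest, and the groups overlapped through most of their range. The log2 fold change was 0.040 (standard error 0.18, 95% interval -0.37 to 0.45, edgeR adjusted p 0.974). It turned to -0.087 without anti-LILRB4 library 3 and -0.11 without control library 2. Ms4a6c (ENSMUSG00000079419, chromosome 19, 11469366 to 11482192, plus strand) was at 27.6, 24.4 and 29.8 CPM in anti-LILRB4 libraries and at 27.6, 24.8 and 21.5 CPM in controls. Its log2 fold change was 0.15 (standard error 0.16, 95% interval -0.21 to 0.51, edgeR adjusted p 0.854), and control 3 was its lowest library.

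Ms4a6d (ENSMUSG00000024679, chromosome 19, 11586604 to 11604849, minus strand) was at 172, 168 and 182 CPM in anti-LILRB4 libraries and at 197, 153 and 154 CPM in controls. All anti-LILRB4 libraries lay inside the range of the controls, and their coefficient of variation was 4.05% against 15.1% in controls. The log2 fold change was 0.050 (standard error 0.12, 95% interval -0.23 to 0.33, edgeR adjusted p 0.948), and it turned to -0.0075 without control library 2 and -0.0089 without control library 3.

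Relative to each other, the paralogs held nearly the same shares in both groups. Ms4a6b made up 48.8, 43.6 and 50.5% of the counts of the 3 genes in anti-LILRB4 libraries and 49.7, 44.0 and 50.4% in controls. Ms4a6d made up 44.2, 49.3 and 42.5% in anti-LILRB4 libraries and 44.1, 48.2 and 43.5% in controls, and Ms4a6c between 6.97 and 7.16% in anti-LILRB4 libraries and between 6.08 and 7.81% in controls. The libraries that stood apart were those numbered 2, where in either group Ms4a6d outnumbered Ms4a6b, while Ms4a6b led in the other 4. The mean share of Ms4a6b was 0.387 percentage points lower in anti-LILRB4 libraries (exact permutation p = 0.8, two-sided), that of Ms4a6c 0.375 points higher (exact permutation p = 0.4) and that of Ms4a6d 0.0116 points higher (exact permutation p = 0.9). Adjusted over the 3 comparisons each was at 0.9, and 3 libraries against 3 cannot go below 0.1.

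**Figure D3:**
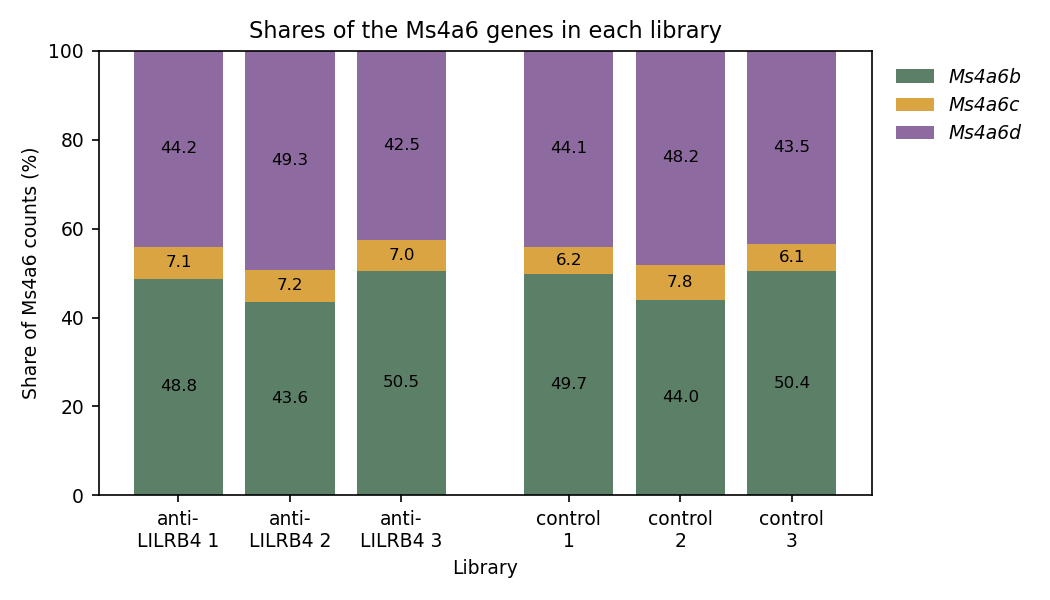
Shares (vertical axis, percent of the summed counts of the 3 genes) of Ms4a6b, Ms4a6c and Ms4a6d in each library, with anti-LILRB4 libraries left of controls. Ms4a6d is the larger part in anti-LILRB4 library 2 (49.3%) and control library 2 (48.2%), and Ms4a6b in the other 4 libraries.

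The rest of the Ms4a family was scarce. Of the 18 family members on the list read here, 7 were tested, and beside the Ms4a6 genes these were Ms4a7, a marker of border-associated macrophages, Ms4a4a, Ms4a4c and Ms4a1, which encodes CD20. Ms4a7 averaged 11.4 ± 4.01 CPM in anti-LILRB4 libraries and 10.3 ± 3.72 CPM in controls (SD, n = 3 each), and its log2 fold change was 0.14. Ms4a1 had a log2 fold change of -0.50, Ms4a4c one of -0.51 and Ms4a4a one of 0.19, with overlapping groups and edgeR adjusted p between 0.808 and 0.945 for the 4 genes. Other Ms4a genes next to the Ms4a6 genes on the chromosome were close to silent. Ms4a4b, beside Ms4a6c, had 5, 2 and 1 reads in anti-LILRB4 libraries and 34, 4 and 1 in controls. Ms4a4d, between Ms4a6b and Ms4a6d, had 0 reads in each anti-LILRB4 library and 11, 8 and 7 in controls. Neither passed the filter on low counts.

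Other cells carry Ms4a genes, and their markers varied between libraries. The 10 markers of border-associated macrophages summed to between 51.7 and 84.3 CPM in anti-LILRB4 libraries and to between 45.6 and 60.1 CPM in controls. The 10 monocyte markers summed to between 34.7 and 87.5 CPM in anti-LILRB4 libraries and to between 53.0 and 119 CPM in controls, and the 10 neutrophil markers to between 135 and 1131 CPM in anti-LILRB4 libraries and to between 572 and 1338 CPM in controls. None of these markers was at 0 in every library. The part of these cells in the Ms4a6 levels was not tested.

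Across the libraries, the member that differed most from Rin3 and from Ptk2b was Ms4a6b. Relative to its own mean over the 6 libraries, Rin3 stood 0.81 higher on the log2 scale in anti-LILRB4 library 2 and Ptk2b 0.63 higher. Ms4a6b stood at -0.28 there, but Ms4a6c at -0.080 and Ms4a6d at -0.021. In control library 1, Rin3 stood at -0.73 and Ptk2b at -0.53, and Ms4a6b at 0.30, Ms4a6d at 0.21 and Ms4a6c at 0.096. Bin1, Cd2ap, Abi3, Rin3 and Ptk2b had their highest value in anti-LILRB4 library 2, as did 19% of all genes. The Ms4a6 genes had their lowest value of the anti-LILRB4 group there, as did 32.3% of all genes. As root mean square difference of these deviations, Rin3 and Ptk2b differed by 0.211, Ms4a6c and Ms4a6d by 0.0997, and Rin3 and Ms4a6b by 0.644, the largest of all pairs.

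**Figure D4:**
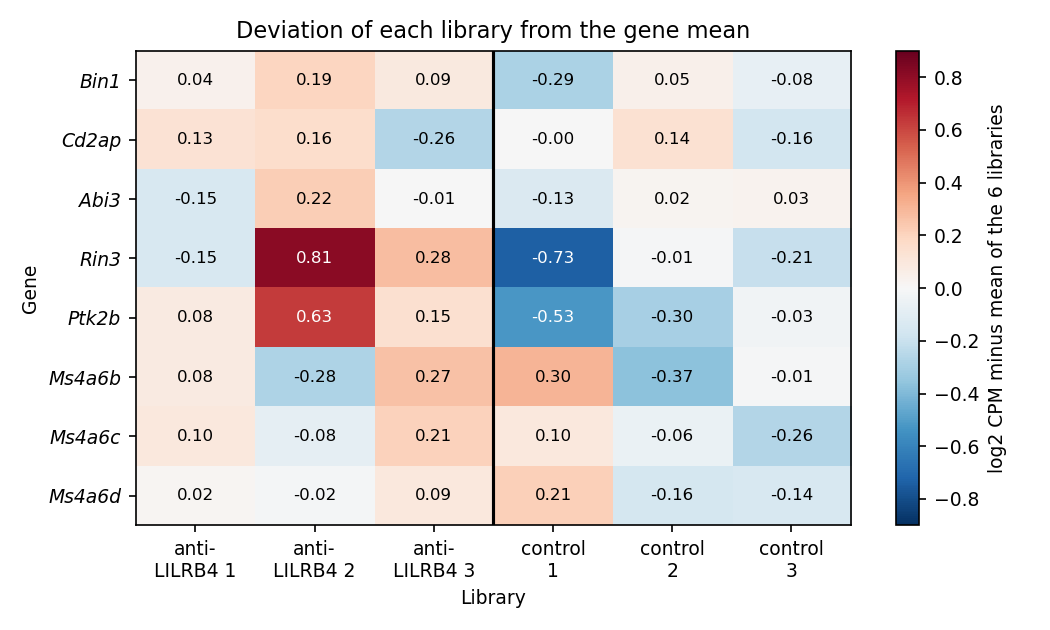
Log2 CPM of each gene (rows) in each library (columns, anti-LILRB4 left of control), minus the gene's mean over the 6 libraries, as colour and number. Rin3 and Ptk2b are highest in anti-LILRB4 library 2 (0.81 and 0.63) and lowest in control library 1 (-0.73 and -0.53), where Ms4a6b and Ms4a6d are at their highest.

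Among 9202 protein-coding genes with a mean log2 CPM of at least 2, those whose deviations over the 6 libraries came closest to Rin3 were Csf1r, the receptor for the growth factors that keep microglia alive, and Plxnb2, a semaphorin receptor, with root mean square differences of 0.0640 and 0.0662. Csf1r was at 3010, 5328 and 3703 CPM in anti-LILRB4 libraries and at 1875, 2892 and 2804 CPM in controls, in the same order of libraries as Rin3 within the anti-LILRB4 group, and its log2 fold change was 0.67 (edgeR adjusted p 0.506). Closest to Ptk2b were Fbrsl1 (0.0750) and Pitpnc1 (0.0759), and closest to Bin1 were Sf3b2 (0.0352) and Tnfrsf11a (0.0355). Tbk1 and Wdr20 came closest to Cd2ap, Rabif and Ppfibp2 to Abi3, Wdr34 and H2-Ab1 to Ms4a6b, Prelid3b and Lactb2 to Ms4a6c, and Mdh2 and Twf2 to Ms4a6d, with differences between 0.0117 and 0.0534. These matches are a description, given with no test.

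The partners of these genes were read from lists of related genes, chosen with earlier results of these data known, and edgeR called 0 genes in each list. Of 22 tested genes of BAR-domain proteins and clathrin endocytosis, 3 were higher at an unadjusted p under 0.05 and 0 were lower. Over all genes, 4.12% were higher and 3.91% lower. The median log2 fold change of the list was 0.14. Bin2, a hematopoietic relative of Bin1, was at 82.2, 167 and 99.7 CPM in anti-LILRB4 libraries and at 47.9, 83.5 and 75.2 CPM in controls. Its log2 fold change was 0.76 (edgeR adjusted p 0.532), and as with Rin3, anti-LILRB4 library 2 was the highest and control 1 the lowest. Synj1, which encodes a phosphoinositide phosphatase of clathrin vesicles, had a log2 fold change of 0.34. Its groups did not overlap, as those of 14.7% of all genes did not.

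Of 18 tested genes of the RIN and Rab5 list, 12 had a positive log2 fold change, and the median was 0.058. The 1 gene that was higher at an unadjusted p under 0.05 was Rin3, and 1 gene was lower. Over all genes, 4.12% were higher and 3.91% lower. Rabgef1, also a RAB5 activator, showed overlapping groups and a log2 fold change of 0.36, and Rin2, a paralog of Rin3, had one of -0.014 at 300.4 CPM or more in each library.

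In the list around Cd2ap and its capping protein partners, 3 of 14 tested genes, Rin3 among them, had higher values at an unadjusted p under 0.05. None had lower ones, where 4.12% of all genes were higher and 3.91% lower. Capzb, the beta subunit of the actin capping protein that CD2AP binds, was at 353, 398 and 386 CPM in anti-LILRB4 libraries and at 266, 299 and 307 CPM in controls. Its log2 fold change was 0.38 with an adjusted p of 0.426 in edgeR. DESeq2, which called 1.1% of all genes, called it at an adjusted p of 0.0481. Pik3ca, a catalytic subunit of phosphoinositide 3-kinase, had a log2 fold change of 0.45, and the 2 groups did not overlap, as for 14.7% of all genes.

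In the WAVE and Arp2/3 list, 2 of 19 tested genes passed an unadjusted p of 0.05 as higher and 0 as lower. Over all genes, 4.12% passed as higher and 3.91% as lower. Arpc1b, the Arp2/3 subunit of blood cells, was at 94.2, 164 and 127 CPM in anti-LILRB4 libraries and at 63.9, 70.3 and 82.1 CPM in controls, and the groups did not overlap. Its log2 fold change was 0.83 (standard error 0.19), and the adjusted p was 0.426 in edgeR and 0.00679 in DESeq2, which called it. Non-overlap was seen for 14.7% of all genes, and DESeq2 called 1.1%. Rac2, the hematopoietic Rac GTPase that activates WAVE, had a log2 fold change of 0.24. Abi1, the broadly expressed relative of Abi3, was between 160.3 and 193 CPM in anti-LILRB4 libraries and between 171 and 188 CPM in controls, with a log2 fold change of -0.046.

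In the focal adhesion kinase and Pyk2 list, 3 of 16 tested genes had an unadjusted p under 0.05, all higher in anti-LILRB4 libraries, Ptk2b among them. Over all genes, 4.12% were higher and 3.91% lower at that p. The median log2 fold change of the list was -0.021. Ptk2, which encodes focal adhesion kinase itself, was at 3.21, 3.98 and 3.08 CPM in anti-LILRB4 libraries and at 4.68, 3.40 and 4.30 CPM in controls, and its log2 fold change was -0.27 (edgeR adjusted p 0.850). Vav1, an exchange factor for Rac, had a log2 fold change of 0.36 and Pxn, the adhesion adaptor paxillin, one of 0.49. In both, all anti-LILRB4 libraries lay above all controls, which 6.94% of all genes showed.

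Among other genes at Alzheimer risk loci, 45 of 55 were tested, 28 had a positive log2 fold change, and the median was 0.10. At an unadjusted p under 0.05, 7 were higher and 0 lower, where 4.12% of all genes were higher and 3.91% lower. EdgeR and DESeq2 called 0, where DESeq2 called 1.1% of all genes. Those with the smallest p were Inpp5d, the inositol phosphatase SHIP1, with a log2 fold change of 0.53, Rbck1, a subunit of the linear ubiquitin ligase, with 0.50, and App with 0.53. All of these mice also carry a human APP transgene, whose part in the App counts was not tested. Next came the deubiquitinase gene Mindy2 (0.33), Havcr2, which encodes the checkpoint receptor TIM-3 (0.37), and Zyx, which encodes the adhesion protein zyxin (0.47). Their edgeR adjusted p was between 0.506 and 0.614. Inpp5d was at 352, 491 and 357 CPM in anti-LILRB4 libraries and at 220.5, 312 and 296 CPM in controls, again with anti-LILRB4 library 2 the highest and control 1 the lowest.

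**Figure D5:**
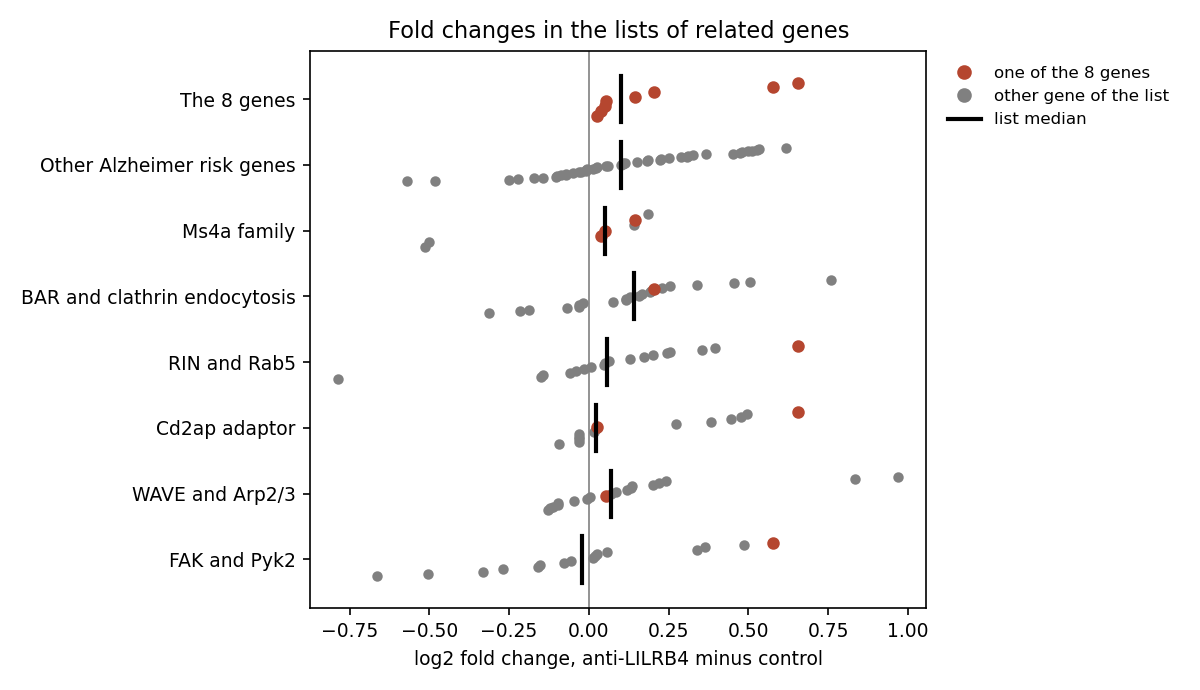
Log2 fold change, anti-LILRB4 minus control (horizontal axis), of every tested gene of 8 lists (rows), with the 8 genes in red, other genes in grey and the list median as a black line. The medians lie between -0.021 and 0.14. Rin3 is the highest gene of each list that holds it, and Ptk2b is the highest of the FAK and Pyk2 list and lies below Rin3 among the 8 genes.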

How the data were processed

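Microglial RNA from 6 libraries, 3 per group, was assigned to groups by sample title. The deposited table holds raw read counts per Ensembl gene, per the file headers. Tools listed without roles in the submitters' processing notes are DESeq2 1.38.3, Salmon, STAR and featureCounts. Not given in the sources used here were the build, the annotation and the treatment of reads with several matches. In the authors' deposited comparison table, per the file headers, columns are DESeq2's mean normalized count (entered as signal), log2 fold change, score (fold change over error), p-value and adjusted p-value. The authors' coordinates had the same start as GENCODE M21 for 2.13% of genes, so coordinates are printed from GENCODE M21 (GRCm38) after matching by identifier.

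After 287 repeated rows with identical counts were dropped, edgeR 4.0.16 in R 4.3.3 was run on all genes passing filterByExpr (minimum count 10) with TMM scaling, and treatment was tested with its quasi-likelihood F test. Library sizes after TMM set the CPM, and a prior count of 2 entered log2 CPM. Standard errors are the fold change over the square root of F. Intervals are at 95%, unadjusted. DESeq2 1.42.0 and limma-voom 3.58.1, other scalings and filters, robust dispersion, an adjusted p of 0.1, a replicate block and leaving out each library were alternatives. Coding sequences and promoters were aligned with MAFFT. The tests were also run on simulated counts, and the outcome is not given here.

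The members and gene lists were chosen with earlier results of these data known. Besides the 8 members, the genes named were by rule the tested Ms4a genes, the 2 with the smallest p of each related list, 6 of the other risk genes and the 2 most alike each member. One gene that this rule names is not reported here. Ms4a4b, Ms4a4d, Rin2, Abi1 and Ptk2 were named after their values were seen. No pair of libraries in a group differed by as little as sampling noise.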

Additional observations from a re-analysis of the deposited data

How the results depend on the processing

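Of 18210 genes, or as many as each setting's filter kept, 0 were called higher and 0 lower by edgeR, by limma-voom, and in edgeR under the 3 other scalings, with robust dispersion, at an adjusted p of 0.1, with a CPM of at least 1 in 3 libraries and without each library in turn. At an unadjusted p under 0.05 edgeR had 751 higher and 712 lower. DESeq2 called 84 higher and 85 lower, and edgeR with no filter on low counts, on 35404 genes, 183 higher and 117 lower, Rin3 among the higher (0.67). The cause was not tested. With the replicate block, which takes libraries of the same number as pairs, 0 were called in each direction. Rin3 was then at 0.63 (standard error 0.15, edgeR adjusted p 0.360). The correlations of deviations from the group mean were 0.068, 0.17 and -0.041 for numbers 1, 2 and 3. Anti-LILRB4 libraries 1 and 2 were closest to the control of the same number, and anti-LILRB4 library 3 to control 1 (0.15). With 3 libraries per group, these values cannot decide whether the numbers pair the libraries. The fold changes of Bin1, Rin3, Ptk2b and Ms4a6c kept their sign in all 16 alternatives. Leaving out each library gave 0.12 to 0.29 for Bin1, 0.38 to 0.86 for Rin3, 0.39 to 0.72 for Ptk2b, 0.058 to 0.24 for Ms4a6c, -0.049 to 0.15 for Cd2ap, -0.044 to 0.14 for Abi3, -0.11 to 0.22 for Ms4a6b and -0.0089 to 0.18 for Ms4a6d. Upper quartile scaling turned Cd2ap to -0.0059. The difference in share, in percentage points, ranged from -2.41 to 1.64 for Ms4a6b, from 0.0709 to 0.940 for Ms4a6c and from -1.96 to 1.47 for Ms4a6d, which was -0.180 per kilobase of exon. The lowest count of a member was 692, where counting error alone is 3.80%, so the spread between libraries and not depth limits these comparisons.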

Other observations

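Ms4a4d, a gene of the Ms4a cluster between Ms4a6b and Ms4a6d, had 0 reads in each of the 3 anti-LILRB4 libraries and 11, 8 and 7 reads in the controls. A count of 0 allows up to 3 reads per library, and this covers counting error only. The gene was singled out after its counts were seen, was too scarce for the filter on low counts, and was not tested.

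The library number 2 went with a larger share of Ms4a6d among the Ms4a6 counts in both groups, at 49.3% in anti-LILRB4 library 2 and 48.2% in control library 2, where the other 4 libraries lay between 42.5 and 44.2%. The labels do not say that equal numbers mark a shared day or batch.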
